A study of Mus musculus with 2 samples.

Results

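The enzymes that build and sulfate heparan sulfate were examined in BMDMs given the supernatant of apoptotic cells, against BMDMs given medium. The set holds 10 genes, chosen from earlier results of these arrays in which Hs3st2 had a higher signal with the supernatant. The other 9 are its chain-building and sulfation partners, with Hs3st2 set beside them. All probe sets that the annotation of the array gives to a single member were taken. This gave 22 probe sets for 9 genes, out of 45101 probe sets and 18194 named genes on the array. Ndst1 had no such probe set and was not analysed here. In both conditions the cells were bone marrow-derived macrophages of C57BL/6J females aged 8 weeks, grown with M-CSF for more than 7 days. The incubation lasted 1 hr, for 1 array with what apoptotic W3 cells had released into their medium and for the other with fresh medium. W3 is a mouse T cell line that carries Fas, and its death was started by 30 min with FasL, after which the washed cells released their products over 60 min into RPMI that held 1% FCS, whereas the labels give the control medium 10% FCS. Serum content therefore cannot be told apart from the supernatant, and neither array stands for living W3 cells.

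Heparan sulfate is a long sugar chain that is attached to core proteins of the cell surface and matrix, where it binds chemokines, growth factors and proteases. Ext1 and Ext2 together lengthen the chain. Ndst enzymes replace acetyl groups with sulfate, Glce turns glucuronic into iduronic acid, Hs2st1 and Hs6st enzymes add sulfate at the 2-O and 6-O positions, and Hs3st enzymes, which act late, add the rare 3-O sulfate. Hs3st1 is known for making the site that binds antithrombin.

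Each condition has a single array, so no difference has an error, an SD or a p-value, and all values below are descriptions. Signals are MAS5 intensities on a linear scale. Dim signals were bounded by a floor of 38.4. This is the 95th percentile of 80 probe sets for odorant and vomeronasal receptors on the array where it was higher, and the brightest of these receptor probe sets read 62.4. Any dimmer signal was raised to the floor before a ratio of supernatant over medium was taken. Where only medium was raised, the ratio is a lower bound, given as "at least". Where only supernatant was raised, it is an upper bound, and where both were raised it bounds nothing. The brightest probe set by mean signal stood for a gene, which counted as measured when that probe set passed the floor with supernatant, medium or both. This held for 11977 genes, with a median log2 ratio of supernatant over medium of -0.02. All 8 macrophage markers were above the floor on both arrays, with Adgre1 at 15781 with supernatant and 16160 with medium, and Csf1r at 28572 with supernatant and 30999 with medium. Of the 8, 1 was at least 2-fold higher, the receptor Mertk, with 1050 with supernatant and 471 with medium. The array names 12 T cell markers, and 8 did not pass the floor in either condition, among them Cd3d, Cd3e and Cd3g. Of the 4 measured, Zap70 was higher, with 313 with supernatant and 208 with medium. The others were lower with supernatant, Cd28 with 283 against 393 with medium, Cd5 with 42.8 against 65.9 and Cd8a with 20.7 against 72.9. The summed signal of the T cell list was 718 with supernatant and 836 with medium. Of 7 neutrophil markers on the array 4 were measured, all with a higher signal with supernatant (median log2 ratio 0.43 with floored signals). S100a9, Elane and Ngp were under the floor with medium, so their floored ratios of 1.90, 1.35 and 1.34 are lower bounds. The neutrophil list summed to 667 with supernatant and 442 with medium. S100a9 read 73.0 with supernatant and 5.85 with medium, and Mpo and Ltf were under the floor on both arrays. The part of other cells in the Hs3st2 signal was not tested.

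Hs3st2 was the one member at least 2-fold higher. It encodes a heparan sulfate 3-O-sulfotransferase. Its brightest probe set read 171 with supernatant and 15.7 with medium, which is under the floor. At that floor this probe set was at least 4.47-fold higher, which is not a bound for the gene as a whole. The second probe set read 32.8 with supernatant and 31.3 with medium, and the third 17.1 with supernatant and 8.57 with medium, both under the floor on both arrays. The difference therefore rests on 1 of 3 probe sets. Among measured genes 0.242% were at least 4-fold higher, and since the set was chosen for this signal nothing is read from that share.

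The promoter of Hs3st2 is shown because the gene is the member that differed, with those of Hs3st1 and Hs3st3b1, the other 3-O-sulfotransferase members, for comparison. All are RefSeq windows of GRCm38.p6, from 250 bases before the start of a transcript to 50 bases after it, written 5′ to 3′ on the strand of the gene. Capitals mark TGACGTCA, the palindromic cAMP response element (CRE) that CREB proteins bind. Hs3st2 lies on the plus strand at chr7:121392046-121392345, Hs3st1 on the minus strand at chr5:39644582-39644881, and Hs3st3b1 on the minus strand at chr11:63922235-63922534.
Hs3st2: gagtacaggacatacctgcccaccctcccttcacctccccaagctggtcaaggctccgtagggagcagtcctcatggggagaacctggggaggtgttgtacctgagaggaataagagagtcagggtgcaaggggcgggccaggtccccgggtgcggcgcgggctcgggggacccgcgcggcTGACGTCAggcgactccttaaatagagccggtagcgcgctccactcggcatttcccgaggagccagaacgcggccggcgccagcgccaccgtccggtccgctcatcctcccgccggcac
Hs3st1: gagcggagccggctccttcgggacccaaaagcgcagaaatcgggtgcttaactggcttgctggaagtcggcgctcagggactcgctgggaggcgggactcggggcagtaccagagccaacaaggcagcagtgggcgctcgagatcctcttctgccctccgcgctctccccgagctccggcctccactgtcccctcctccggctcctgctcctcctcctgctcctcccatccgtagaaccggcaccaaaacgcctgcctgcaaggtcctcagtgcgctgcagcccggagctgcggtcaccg
Hs3st3b1: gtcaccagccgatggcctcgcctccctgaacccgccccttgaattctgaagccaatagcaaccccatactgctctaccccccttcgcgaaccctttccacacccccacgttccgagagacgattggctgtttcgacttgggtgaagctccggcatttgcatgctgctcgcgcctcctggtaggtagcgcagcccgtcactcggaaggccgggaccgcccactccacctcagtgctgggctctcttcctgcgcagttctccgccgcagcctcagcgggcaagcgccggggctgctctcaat
In Hs3st2 the palindrome lies 69 to 62 bases before the start. RefSeq also has models of the gene that begin upstream of this window. Promoters of 8 of the 10 members were in the table, and Hs3st2 was the only one of the 8 with TGACGTCA.

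The palindrome was present in 588 of 32851 promoters of this length, or 1.79%. Its shorter site TGACG, searched on both strands and contained in the palindrome, was found in 4 of the 8 members (Hs3st2, Hs3st3b1, Hs2st1 and Glce), against 35.1% of the 9747 measured genes that had a promoter in the table and 20.8% of all promoters. The GC box GGGCGG was found on either strand in 6 of 8, Hs3st2 among them, against 67.4% of those measured genes, a share near that of the members, and 35.7% of all promoters. None of the 8 held the AP-1 motif TGAGTCA, the Egr motif GCGTGGGCG, the Nr4a monomer site AAAGGTCA or TATAAA, which were in 4.76%, 1.44%, 1.13% and 9.08% of measured genes and in 5.20%, 0.612%, 1.51% and 13.6% of all promoters, both strands searched. TGACGTCA was in 345 of the 9747 measured genes, or 3.54%, and in 6 of the 89 among them that were at least 2-fold higher, or 6.74%. Hs3st2 is itself 1 of these 6, so that share is not independent of it. A further 3-O-sulfotransferase gene, Hs3st3a1, also has the palindrome, shown here with 11 bases on either side (plus strand, GRCm38.p6, chr11:64435238-64435267).
Hs3st3a1: gcctgggccgtTGACGTCAccaccaagttt
Its single probe set read 3.24 with supernatant and 2.99 with medium, far under the floor on both arrays. A match of letters is a description and shows no binding.

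**Figure D1:**
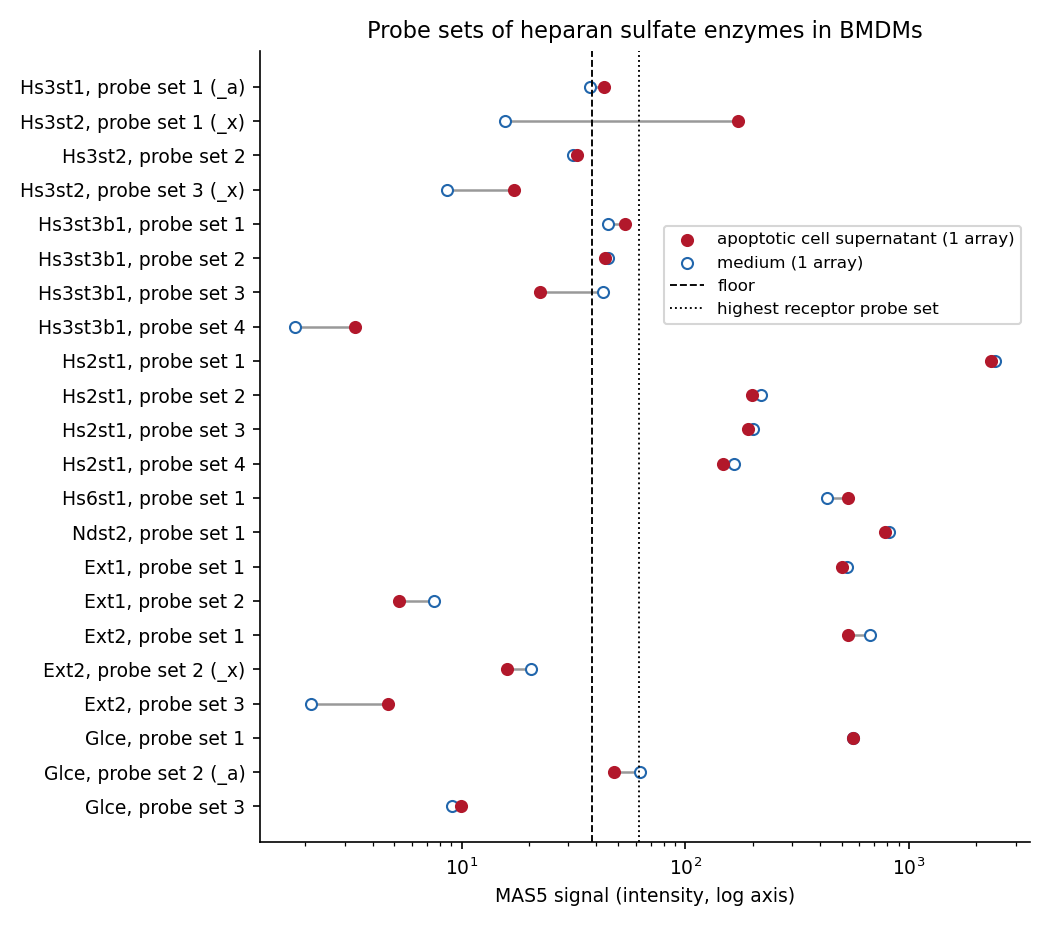
MAS5 signal (intensity, log axis) of each of the 22 probe sets of the members with apoptotic cell supernatant (filled circles) and medium (open circles), 1 array each, with the floor of 38.4 dashed and the highest receptor signal of 62.4 dotted. The brightest Hs3st2 probe set reads 171 with supernatant and 15.7 with medium, its other 2 lie left of the floor, and the probe sets that lie to the right of the dotted line on both arrays have log2 ratios between -0.32 and 0.31.

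The other 3-O-sulfotransferase members were dim on both arrays. Hs3st1 has 1 probe set, which read 43.1 with supernatant and 37.5 with medium. Hs3st3b1, whose human counterpart makes sites that a herpes simplex virus glycoprotein binds, has 4. They read 54.0, 43.8, 22.3 and 3.35 with supernatant, against 45.0, 45.0, 42.9 and 1.80 with medium, in the order of their mean signal. All of these values lie under 62.4, the brightest receptor probe set, so a level above that of receptors was not detectable for either gene. Of the remaining family members, Hs3st5 was not analysed here, and Hs3st3a1, Hs3st4 and Hs3st6, which have 1 probe set each, did not exceed 36.3 on either array. The bright Hs3st2 probe set with supernatant was thus the only reading above 62.4 among the probe sets of these 6 genes.

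The enzymes that lengthen the chain were above the floor on both arrays. Ext1, a subunit of the polymerase, read 505 with supernatant and 529 with medium on its bright probe set (log2 ratio -0.07), and its other probe set was under the floor. Ext2, the partner subunit, read 535 with supernatant and 669 with medium, a log2 ratio of -0.32. This was the lowest ratio among the members, and 12.6% of measured genes had a ratio as low or lower. The other 2 Ext2 probe sets read 16.0 and 4.70 with supernatant, against 20.5 and 2.11 with medium, and were under the floor.

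The enzymes that modify the chain before 3-O sulfation also had close signals in both conditions. Ndst2, an N-deacetylase and N-sulfotransferase, read 786 with supernatant and 815 with medium. Glce, the epimerase, read 564 on both arrays with its bright probe set. A dimmer Glce probe set read 48.2 with supernatant and 62.8 with medium, the lowest log2 ratio (-0.38) of any member probe set above the floor on both arrays, though neither signal was far above the receptors. The remaining Glce probe set was under the floor.

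Hs2st1, the 2-O-sulfotransferase, is the member read most fully, with all 4 of its probe sets above the floor in both conditions. They read 2332, 200, 190 and 147 with supernatant, against 2422, 218, 200 and 166 with medium, in the order of their mean signal. All were slightly lower with supernatant, with log2 ratios from -0.17 to -0.05. Hs6st1, a 6-O-sulfotransferase, has 1 probe set, which read 535 with supernatant and 433 with medium. Its log2 ratio of 0.31 was the highest after Hs3st2, and 10.4% of measured genes had a ratio as high or higher.

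At the level of genes 1 of the 9 measured members was at least 2-fold higher, against 0.960% of all measured genes, and 0 were at least 2-fold lower, against 0.843%. The members were chosen with the Hs3st2 signal known, so this count shows nothing about the set. The median log2 ratio of the 9 was -0.0013, and without Hs3st2 it was -0.03, near that of all measured genes. The 8 other members ran from -0.32 to 0.31, a range that held 77.0% of all measured genes. For scale, log2 ratios of different probe sets of the same gene differed with an SD of 0.25, which was taken over 5196 genes and covers no difference between arrays or cultures.

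The bright Hs3st2 probe set carries the suffix _x, which Affymetrix gives where some of its probes also match other transcripts closely. Of 1687 probe sets with this suffix that passed the floor in at least 1 condition, 6 or 0.356% were at least 4-fold higher with supernatant. For probe sets without a suffix this share was 0.146%, or 29 of 19845. The 4-fold cut over the floor sets the lowest supernatant signal that can pass. Nothing is therefore read from dim signals that lie close together. Of the 6 with the suffix, 4 read between 171 and 177 with supernatant. They are the Hs3st2 probe set, 1 with no listed gene (172 with supernatant and 16.6 with medium), 1 of Ddx39a (175 with supernatant and 25.9 with medium) and 1 of Sae1 (177 with supernatant and 42.2 with medium). The largest ratio of the 6 was that of Gm6377, with 3297 with supernatant and 432 with medium, and this gene has no other probe set. Ddx39a, Sae1 and Cnpy2, like Gm6377 named after their values were seen, can be set against their other probe sets. Ddx39a, an RNA helicase, has 4 others, all above the floor, with log2 ratios from -0.05 to -0.01, and the brightest read 8585 with supernatant and 8644 with medium. Sae1, a subunit of the SUMO-activating enzyme, has 3 others with log2 ratios from -0.52 to 0.10. Cnpy2, whose _x probe set read 275 with supernatant and 59.8 with medium, has 3 others from -0.55 to 0.10. In these 3 genes the difference of the _x probe set was thus not shared by the brighter probe sets. For Hs3st2 no other probe set was above the floor, and whether its bright probe set reads Hs3st2 alone was not tested.

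**Figure D2:**
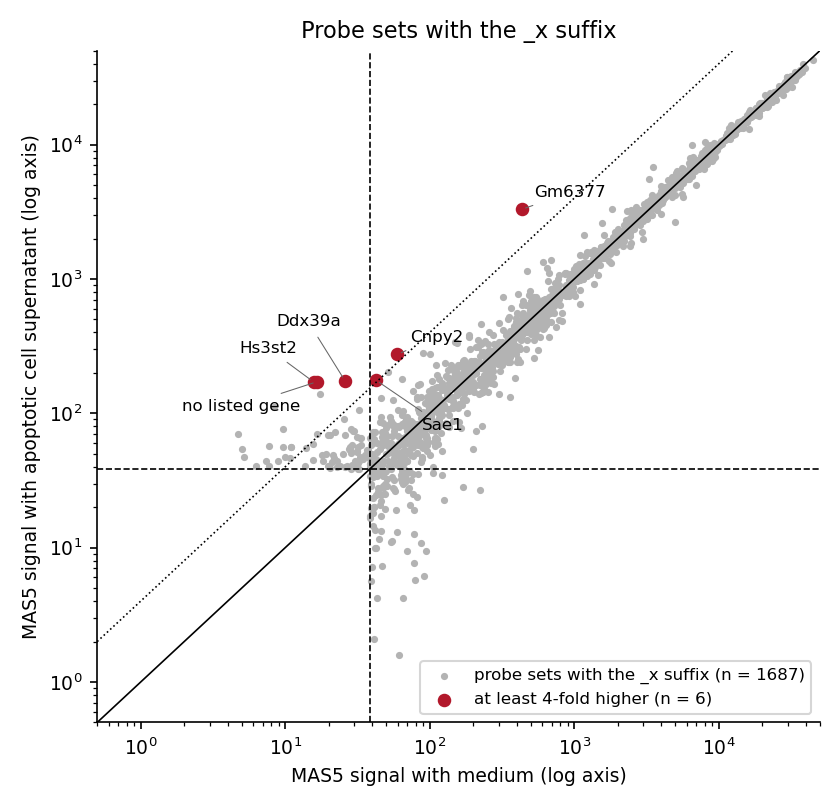
MAS5 signals (intensity, log axes) of the 1687 probe sets with the _x suffix that passed the floor in at least 1 condition, with apoptotic cell supernatant on the vertical and medium on the horizontal axis, 1 array each, with equality as a solid line, 4-fold higher as a dotted line and the floor of 38.4 dashed. Red points are the 6 probe sets at least 4-fold higher after flooring, Hs3st2 included.

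Of 20 genes that have several probe sets and 1 of them at least 4-fold higher, 4 had all their other probe sets under the floor on both arrays. These were Hs3st2 and, named after their values were seen, B3gnt5, an enzyme of glycosphingolipid synthesis, and the transcription factors Mycn and Nr4a3. Among them Hs3st2 is the one whose bright probe set has the _x suffix.

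The other genes of the pathway were taken from 6 lists with 70 genes, of which 67 had a probe set and 49 were measured. With floored signals none of the 49 was at least 2-fold higher and none at least 2-fold lower. Among all measured genes 0.960% were higher and 0.843% lower, shares so small that this count shows nothing about the pathway. The log2 ratios of the 49 ran from -0.66 to 0.48 with a median of 0.01, and 26 were above 0 and 23 below. Where a signal was under the floor, as for Chst13 with supernatant, the difference is a minimum.

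Enzymes of the linkage region, the short sugar stem that joins the chain to its core protein, had a median log2 ratio of -0.19 over 9 measured genes. B3galt6, which adds a galactose of the stem, read 170 with supernatant and 269 with medium, the lowest ratio in the pathway (-0.66). Its other probe sets had log2 ratios of 0.19 and -0.24, so its probe sets disagree. Extl2, a glycosyltransferase that acts at the stem, read 460 with supernatant and 620 with medium on its brighter probe set, and 397 with supernatant and 375 with medium on the other. B3gat3, which completes the stem, read 643 with supernatant and 499 with medium, and 105 with supernatant and 113 with medium on its second probe set. B4galt7, which adds the galactose next to xylose, had log2 ratios of -0.34 and 0.07. In all 4 of these genes the sign differed between probe sets.

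Few of the other enzymes that modify or cut the chain were read at all. The array names 11, and 9 did not pass the floor in either condition, among them Hs6st2, Hs6st3, Ndst3, Ndst4 and the sulfatase Sulf1. Sulf2, which removes 6-O sulfate outside the cell, read 1911 with supernatant and 2206 with medium on a probe set with the suffix _x. Its other probe sets read 774 with supernatant and 767 with medium, and 589 with supernatant and 604 with medium. Hpse, the heparanase that cuts the chain, read 455 with supernatant and 450 with medium.

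The supply of precursors was measured in full, with 9 genes and a median log2 ratio of 0.06. Papss2, which makes the sulfate donor PAPS, read 114 with supernatant and 96.4 with medium on its brightest probe set, and its others were under the floor. Papss1, named here because it has the same activity, was brighter, with 1630 with supernatant and 1497 with medium. The sulfate transporter Slc26a2 read 822 with supernatant and 752 with medium. The PAPS transporter Slc35b3 read 670 with supernatant and 775 with medium, and the nucleotide sugar transporter Slc35d2 read 192 with supernatant and 229 with medium.

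Among core proteins 10 of 15 were measured, with a median log2 ratio of -0.03. Hspg2, the matrix proteoglycan perlecan, read 264 with supernatant and 399 with medium (log2 ratio -0.60). Gpc1, a glypican, read 109 with supernatant and 158 with medium (-0.54), and Sdc2, a syndecan, 74.6 with supernatant and 106 with medium (-0.50). A second Sdc2 probe set went the other way, with 41.6 with supernatant and 6.42, under the floor, with medium. Agrn, the proteoglycan agrin, had the highest ratio in the pathway, with 329 with supernatant and 235 with medium (0.48). The bright syndecans were close on their brightest probe sets, with Sdc4 at 3830 with supernatant and 3740 with medium, and Sdc3 at 3607 with supernatant and 3499 with medium. For Sdc3 the other probe sets ranged from -0.68 to 1.13 in log2 ratio.

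The lysosomal enzymes that break the chain down had a median log2 ratio of -0.06 over 7 measured genes. Hgsnat, which acetylates the chain end, read 1946 with supernatant and 2856 with medium (-0.55). Sgsh, a sulfamidase, read 242 with supernatant and 288 with medium. Naglu, a glucosaminidase, read 1155 with supernatant and 1066 with medium, and Arsg, a sulfatase, 42.4 with supernatant and 53.3 with medium. Enzymes of chondroitin and dermatan sulfate, the sister chains on the same stem, had a median of 0.07 over 12 measured genes. Chsy1, a chondroitin synthase, read 1364 with supernatant and 986 with medium (0.47), and Dsel, an epimerase of dermatan sulfate, 509 with supernatant and 440 with medium. Chst11, a chondroitin sulfotransferase, read 527 with supernatant and 662 with medium, while Chst13, of the same family, read 15.4 with supernatant and 57.5 with medium and so was under the floor with supernatant.

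**Figure D3:**
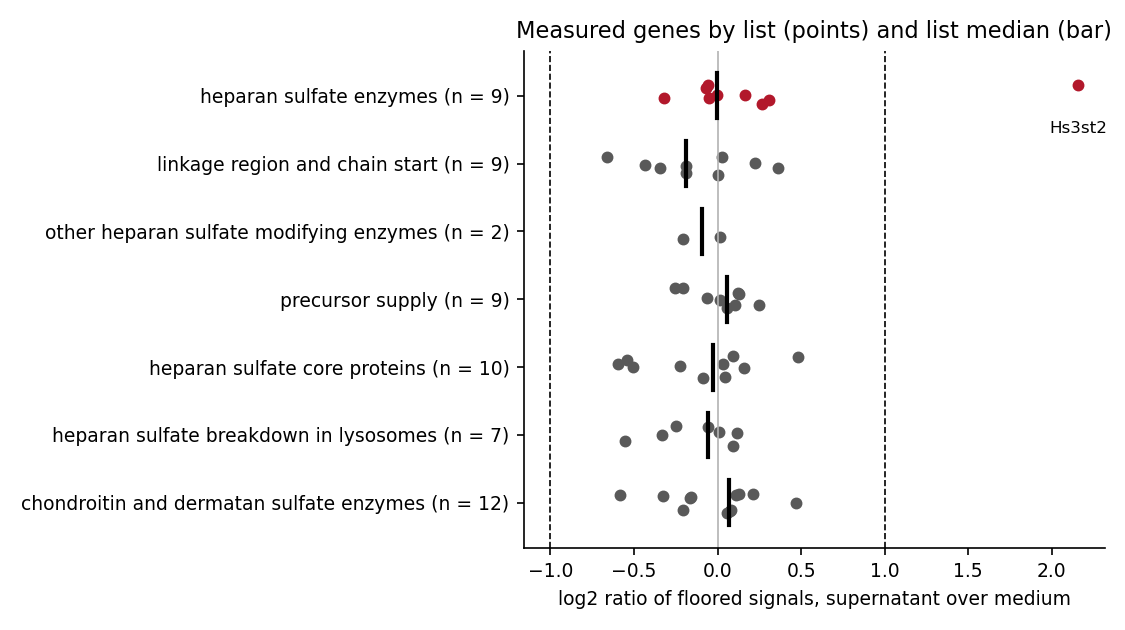
Log2 ratio of floored MAS5 signals, apoptotic cell supernatant over medium (1 array each), for every measured gene of the members (red) and of 6 other lists of the pathway (grey), with list medians as bars and dashed lines at a 2-fold difference. Hs3st2 at 2.16 is the only point outside the dashed lines, and the other 8 members lie between -0.32 and 0.31.

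The Hs3st2 ratio depended on the probe set and the floor. Its log2 ratio was 2.16 as reported, 3.45 with no floor and 1.16 when the floor was 2 times as high. It was at least 1.19-fold higher when the log2 signals of its 3 probe sets were averaged, and with probe sets that carry no suffix it was under the floor on both arrays. No member other than Hs3st2 was 2-fold higher or lower under any of the 9 alternatives.

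**Figure D4:**
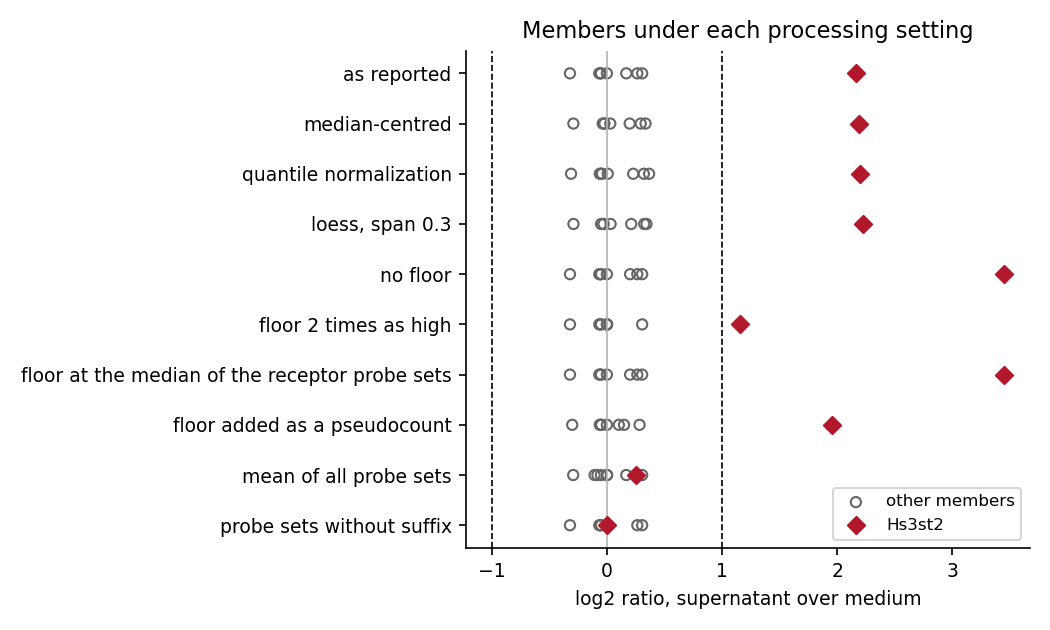
Log2 ratio, apoptotic cell supernatant over medium, of Hs3st2 (diamonds) and of the other members (circles) under the reported setting and 9 alternatives, with dashed lines at a 2-fold difference. Hs3st2 runs from 3.45 with no floor to 0.25 with the mean of all probe sets and 0 with probe sets that carry no suffix, and the other members stay between the dashed lines in each setting.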

How the data were processed

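RNA of BMDMs from 2 conditions was hybridized to an Affymetrix mouse genome array, 1 array per condition. The authors deposited one MAS5 signal for each probe set, a linear intensity. The submitters' processing notes and the methods name MAS5, and a genome build is not given in the sources used here. The mean after trimming 2% at each end was 500.0 on both arrays. Conditions were taken from the sample labels.

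Probe sets were named from the platform annotation (34958 with a single gene, 932 with several, 9211 not listed), and symbols were looked up in RefSeq (GRCm38.p6) by Entrez identifier for 34754, of which 0 changed. The members and lists were chosen with earlier results of these data known. Named are all member probe sets and up to 4 genes per pathway list with the largest floored difference, while genes named for other reasons are marked or serve as markers. The rule also held the 4 genes with signals nearest to those of Hs3st2, which are left out because levels of different probe sets are not comparable. Values were computed with Python 3.11.15, pandas 2.3.3, numpy 2.4.6, statsmodels 0.14.6 and matplotlib 3.10.9. No test was run. The alternatives were median-centring, quantile normalization, loess (span 30%), no floor, a floor of 76.8 or 9.56, the floor as a pseudocount, the mean of all probe sets, and leaving out probe sets with a suffix (_s, _x or _a). The steps were tested on simulated data, with differences planted only in genes well above the floor. Signals near or under the floor, such as that of Hs3st2 with medium, were not covered.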

Additional observations from a re-analysis of the deposited data

How the results depend on the processing

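No paired analysis was possible because there is 1 array for either condition, which allows no test. The number of arrays limits the precision, and dim signals limit what can be read for the 3-O-sulfotransferases. The Hs3st2 log2 ratio, 2.16 as reported, was 3.45 both with no floor and with the lower floor of 9.56 (the receptors' median), 1.16 with the floor 2 times as high, 0.25 with the mean of all probe sets and 0 with probe sets without suffix. The count of members at least 2-fold higher, 1 as reported, was 0 in the last 2 of these settings. Of 71 values of the other members under the alternatives, 68 moved by less than the SD between probe sets of a gene. The other 3 were Ext2 and Hs3st3b1 with the mean of all probe sets and Hs3st3b1 with the floor 2 times as high, each of which then lay under the floor. Pathway genes at least 2-fold higher and lower, 0 and 0 as reported, were 2 and 9 with no floor and 2 and 6 with the lower floor. With the mean of all probe sets 1, Ids, was lower, where 2 of its 6 probe sets were dim in both conditions and the 4 others had log2 ratios above 0. Over all measured genes 115 were at least 2-fold higher and 101 lower. These were 1865 and 2116 with no floor, and 1006 and 1210 with the lower floor. The number lower was 27 with the floor 2 times as high, 66 after quantile normalization and 157 with the mean of all probe sets.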
